A study of Mus musculus with 28 samples.

Results

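The members described here are the 3 genes of the NR4A family of nuclear receptors (Nr4a1, Nr4a2 and Nr4a3) and 7 immediate early genes (Fos, Fosb, Jun, Junb, Atf3, Egr1 and Ier2). They were picked by gene symbol, with no use of a measured value, and make up 10 of the 45318 genes in the count tables. All 10 passed the filter on low counts at both follow-ups.

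RNA was sequenced from the left ventricular wall remote from the infarct in 28 mice, 1 library per mouse. Male Hsd:ICR (CD-1) mice underwent ligation of the left anterior descending coronary artery (MI) or a sham operation at 7 days or at 1 day of age, and tissue was taken 3 or 21 days later. The 3-day groups held 4 libraries each (7d-MI + 3, 7d-SHAM + 3, 1d-MI + 3 and 1d-SHAM + 3) and the 21-day groups 3 each (7d-MI + 21, 7d-SHAM + 21, 1d-MI + 21 and 1d-SHAM + 21). The neonatal mouse heart is known to regenerate in the first days of life and to lose this capacity within the first week, and the design compares the infarct response of the 2 ages. No gene was deleted or introduced in any group, and sham mice were operated without ligation.

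Levels are given as CPM, a gene's counts relative to the library total, scaled by the TMM method within each follow-up. Library totals were 33077962 to 51942648 counts at 3 days and 40514177 to 168550985 at 21 days. Genes with at least 1 count numbered 19446 to 35932 at 3 days, and ribosomal RNA took 2.91 to 25.8% of counts at 3 days and 2.58 to 64.6% at 21 days. The 3-day and 21-day libraries were made with different kits and sequencers, so levels were not compared across follow-ups. At 21 days every group carried 1 sample name prefix of its own, so group and prefix cannot be told apart. At 3 days no prefix was shared by 2 groups. Every library of 7d-SHAM + 3 carried prefix 1075, so group and prefix cannot be told apart there either. The 1d-SHAM + 3 group held 2 libraries of prefix 1078 (replicates 1 and 2) and 2 of prefix 1103 (replicates 3 and 4). These libraries differed in the members: the 1078 libraries lay above the 1103 libraries for Nr4a1, Nr4a2, Nr4a3, Fos, Fosb, Atf3 and Egr1 and below them for Jun, with a ratio of means of 5.09 for Fos and 3.93 for Nr4a3. The 1078 libraries also had 28454 and 30025 genes detected and the 1103 libraries 20612 and 20069. Results that rest on 1d-SHAM + 3 are therefore also given with each prefix alone where that changes a call.

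Immediate early genes are transcribed within minutes of a stimulus from transcription factors already present in the cell, chiefly SRF with its cofactors and CREB, without new protein synthesis. Fos, Fosb, Jun, Junb and Atf3 encode bZIP proteins that pair to form or bind alongside the AP-1 factor, which binds the site TGANTCA. Egr1 encodes a zinc finger factor that binds GC-rich sites, and Ier2 encodes a short-lived nuclear protein. The NR4A receptors are immediate early genes too: they act without a known natural ligand, bind the NBRE site AAAGGTCA as monomers, and are classical targets of cAMP and CREB signalling. In heart tissue these genes are known to respond to stretch, adrenergic stimulation, ischaemia and injury, and also to handling of the tissue.

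In GRCm38 the NR4A genes lie at chr15:101254269-101274795 (Nr4a1), chr2:57106830-57124003 (Nr4a2) and chr4:48045153-48086447 (Nr4a3). The AP-1 genes lie at chr12:85473890-85477273 (Fos), chr7:19302696-19310051 (Fosb), chr4:95049034-95052222 (Jun), chr8:84974484-84978718 (Junb) and chr1:191170296-191218039 (Atf3), and Egr1 and Ier2 at chr18:34859823-34864984 and chr8:84661331-84662852. Jun and Ier2 have 1 exon, and the NR4A genes have up to 8. In the GENCODE annotation, Junb shares 173 of its 2301 exonic bases with Prdx2 on the opposite strand, and Jun shares 232 of 3189 with its antisense transcript Junos. The Junb length recovered from the deposited RPKM values was 1840 bases, so the counted gene model differs and may not hold the shared bases. The strand setting of the counting is not given in the sources used here, so reads in the shared bases cannot be told apart. Prdx2 measured 96.4 to 249.0 CPM at 3 days and lay at 113.0 to 146.0 CPM in 7d-MI + 3 and 207.0 to 249.0 CPM in 7d-SHAM + 3, the opposite direction to Junb below. Junos reached at most 1.97 CPM in any library.

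Per kilobase of gene, Jun had the highest mean of the members in 7d-MI + 3, 1d-MI + 3 and 1d-SHAM + 3, while in 7d-SHAM + 3 Atf3 (14.3 ± 3.11 RPKM) and Jun (13.7 ± 1.07 RPKM) lay within their spread of each other (SD, n = 4 each). In 7d-MI + 3, Jun averaged 16.1 ± 1.19 RPKM (SD, n = 4), Atf3 5.04 ± 1.16, Junb 4.95 ± 0.89 and Egr1 4.07 ± 1.69 RPKM. Atf3, Junb and Egr1 stood within their spread of each other. Fos (2.26 ± 0.32), Ier2 (2.21) and Nr4a1 (1.74 ± 0.60) followed, with Nr4a2 (0.706 ± 0.16), Nr4a3 (0.650 ± 0.16) and Fosb (0.116) lowest. In 7d-SHAM + 3 the order was different, with Nr4a3 (3.76 ± 0.81 RPKM) above Nr4a1 (2.50 ± 0.85) and Fos at 0.123 ± 0.067 RPKM. Fosb was thinly covered, with 0 to 128 counts per 3-day library.

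RefSeq promoter windows of GRCm38.p6, running from 250 bases before to 50 bases after the start site, were matched for 8 members. They were searched on both strands for the CREB core site TGACG, the full CRE TGACGTCA, the AP-1 site TGANTCA, the NBRE AAAGGTCA, the EGR site GCGGGGGCG and the CArG box bound by SRF. The core site TGACG was found in 7 of the 8 (not in Jun), against 20.8% of 32851 windows of the same length. Nr4a1, Nr4a2 and Nr4a3 held 4 matches each, Fos 2, and Fosb, Junb and Atf3 1 each. The EGR site was found in Nr4a1, from base -60 from the start site, and in Fosb at -50, against 2.91% of all windows, and it overlaps none of the core sites. The other sites had no match in the 8 windows, and occurred in 1.79% (CRE), 7.81% (AP-1), 1.51% (NBRE) and 1.63% (CArG box) of all windows. A match is a run of letters and was not tested for binding. No window was available for Egr1 and Ier2, and bases farther than 250 before a start site were not searched. The stretches that hold the core sites are printed for the 3 receptors, whose windows hold the most, and for 3 of the AP-1 genes that the comparisons turn on, 5′ to 3′ on the strand of the gene, with TGACG or its reverse complement in capitals.
Nr4a1 (chr15:101266606-101266845, plus strand, bases -240 to -1): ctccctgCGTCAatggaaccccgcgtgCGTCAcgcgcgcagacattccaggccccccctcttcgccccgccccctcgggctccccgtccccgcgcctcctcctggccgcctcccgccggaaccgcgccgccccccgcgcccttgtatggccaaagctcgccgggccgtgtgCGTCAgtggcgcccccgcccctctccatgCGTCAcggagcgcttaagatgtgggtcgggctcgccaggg
Nr4a2 (chr2:57124004-57124213, minus strand, bases -210 to -1): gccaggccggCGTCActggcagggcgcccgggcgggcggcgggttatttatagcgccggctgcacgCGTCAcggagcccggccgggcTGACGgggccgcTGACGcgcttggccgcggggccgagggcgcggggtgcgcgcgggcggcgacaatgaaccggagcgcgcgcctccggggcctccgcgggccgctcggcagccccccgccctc
Nr4a3 (chr4:48045065-48045304, plus strand, bases -240 to -1): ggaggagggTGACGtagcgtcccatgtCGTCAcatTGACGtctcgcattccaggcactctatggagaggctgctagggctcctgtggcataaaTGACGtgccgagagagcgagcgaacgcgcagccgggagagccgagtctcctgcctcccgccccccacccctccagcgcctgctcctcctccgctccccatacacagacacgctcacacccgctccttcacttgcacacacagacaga
Fos (chr12:85473740-85473889, plus strand, bases -150 to -1): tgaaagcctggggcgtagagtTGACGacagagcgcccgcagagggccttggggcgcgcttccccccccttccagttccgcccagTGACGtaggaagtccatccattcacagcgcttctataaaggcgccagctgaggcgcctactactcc
Junb (chr8:84978749-84978898, minus strand, bases -150 to -1): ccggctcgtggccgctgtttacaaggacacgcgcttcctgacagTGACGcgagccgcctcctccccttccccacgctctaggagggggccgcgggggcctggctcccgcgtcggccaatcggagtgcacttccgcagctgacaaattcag
Atf3 (chr1:191183334-191183483, minus strand, bases -150 to -1): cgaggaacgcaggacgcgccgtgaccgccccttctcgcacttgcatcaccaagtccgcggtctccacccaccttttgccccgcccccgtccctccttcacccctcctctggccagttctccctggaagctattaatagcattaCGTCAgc

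The comparison of 7d-MI + 3 with 7d-SHAM + 3 asks how the remote wall of the older hearts responded to the infarct. Immediate early and NR4A genes moved in both directions. Egr1, Fos, Junb and Nr4a2 were higher in 7d-MI + 3, Nr4a3 and Atf3 were lower, and Nr4a1, Fosb, Jun and Ier2 did not pass the test. The quasi-likelihood test of edgeR, with p adjusted by Benjamini-Hochberg over 20345 genes, passed 6 of 10 members at a threshold of 0.05, where 34% of all genes did. The median log2 fold change of the members was 0.76, against 0.08 over all genes. All 6 calls held under every alternative run, among them leaving out any one library. Prefix and group cannot be told apart in 7d-SHAM + 3, whose libraries all carried prefix 1075.

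Egr1, the zinc finger factor, measured 12.1, 19.3, 28.6 and 13.1 CPM in 7d-MI + 3, against 0.952, 0.929, 0.871 and 0.923 CPM in 7d-SHAM + 3. The difference was 4.31 on the log2 scale (SE 0.36, adjusted p = 8.53e-08), with the lowest p among the members. Fos, the founding AP-1 subunit, measured 5.85, 6.01, 5.00 and 4.40 CPM in 7d-MI + 3, against 0.408, 0.217, 0.102 and 0.434 CPM in 7d-SHAM + 3. That is 203 to 315 counts against 4 to 16 counts per library, which gave 4.20 on the log2 scale (SE 0.57, adjusted p = 1.84e-05). For both genes the groups lay far apart. The 7d-SHAM + 3 libraries had the 4 lowest Fos levels at 3 days, and for Egr1 only 1d-SHAM + 3 replicate 4 lay below them. A background read from 1223 olfactory and vomeronasal receptor genes, most of which are used chiefly in sensory tissue, would make up 0.448 to 0.75% of the Fos counts in 7d-MI + 3 and 7.48 to 24.7% in 7d-SHAM + 3, and both calls held with it subtracted.

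Junb, an AP-1 subunit, measured 8.95, 11.3, 7.29 and 8.92 CPM in 7d-MI + 3, against 2.01, 1.64, 1.64 and 1.85 CPM in 7d-SHAM + 3 (log2 fold change 2.35, SE 0.24, adjusted p = 4.55e-07). Nr4a2 measured 2.78, 3.02, 3.62 and 2.04 CPM in 7d-MI + 3, against 1.36, 1.11, 0.973 and 1.03 CPM in 7d-SHAM + 3 (log2 fold change 1.36, SE 0.33, adjusted p = 0.0029). Neither gene's groups overlapped.

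Nr4a3 went the other way: it measured 3.56, 4.18, 5.01 and 2.82 CPM in 7d-MI + 3, against 25.5, 23.0, 26.0 and 15.5 CPM in 7d-SHAM + 3 (log2 fold change -2.53, SE 0.37, adjusted p = 4.47e-05). Atf3, a bZIP factor known as a stress-induced repressor, measured 12.1, 12.5, 7.13 and 11.7 CPM in 7d-MI + 3, against 31.4, 32.1, 38.0 and 21.8 CPM in 7d-SHAM + 3 (log2 fold change -1.51, SE 0.31, adjusted p = 0.00112). For both, every infarct library lay below every sham library, and 7d-SHAM + 3 had the highest mean of the 3-day groups. The receptor family was therefore split, with Nr4a2 higher, Nr4a3 lower, and Nr4a1 at 4.30 ± 1.497 CPM in 7d-MI + 3 and 6.17 ± 2.09 CPM in 7d-SHAM + 3 (SD, n = 4 each, adjusted p = 0.31). These directions held under all scalings tried.

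Jun measured 54.3, 54.5, 46.6 and 49.98 CPM in 7d-MI + 3 and 44.8, 45.8, 45.6 and 38.6 CPM in 7d-SHAM + 3. The groups did not overlap, but the log2 fold change of 0.23 (SE 0.16) missed the threshold (adjusted p = 0.28). Fosb averaged 0.436 ± 0.092 CPM in 7d-MI + 3 and 0.202 ± 0.144 CPM in 7d-SHAM + 3 (SD, n = 4 each). Ier2 averaged 3.36 ± 0.93 CPM in 7d-MI + 3 and 2.58 ± 0.47 CPM in 7d-SHAM + 3 (SD, n = 4 each).

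**Figure D1:**
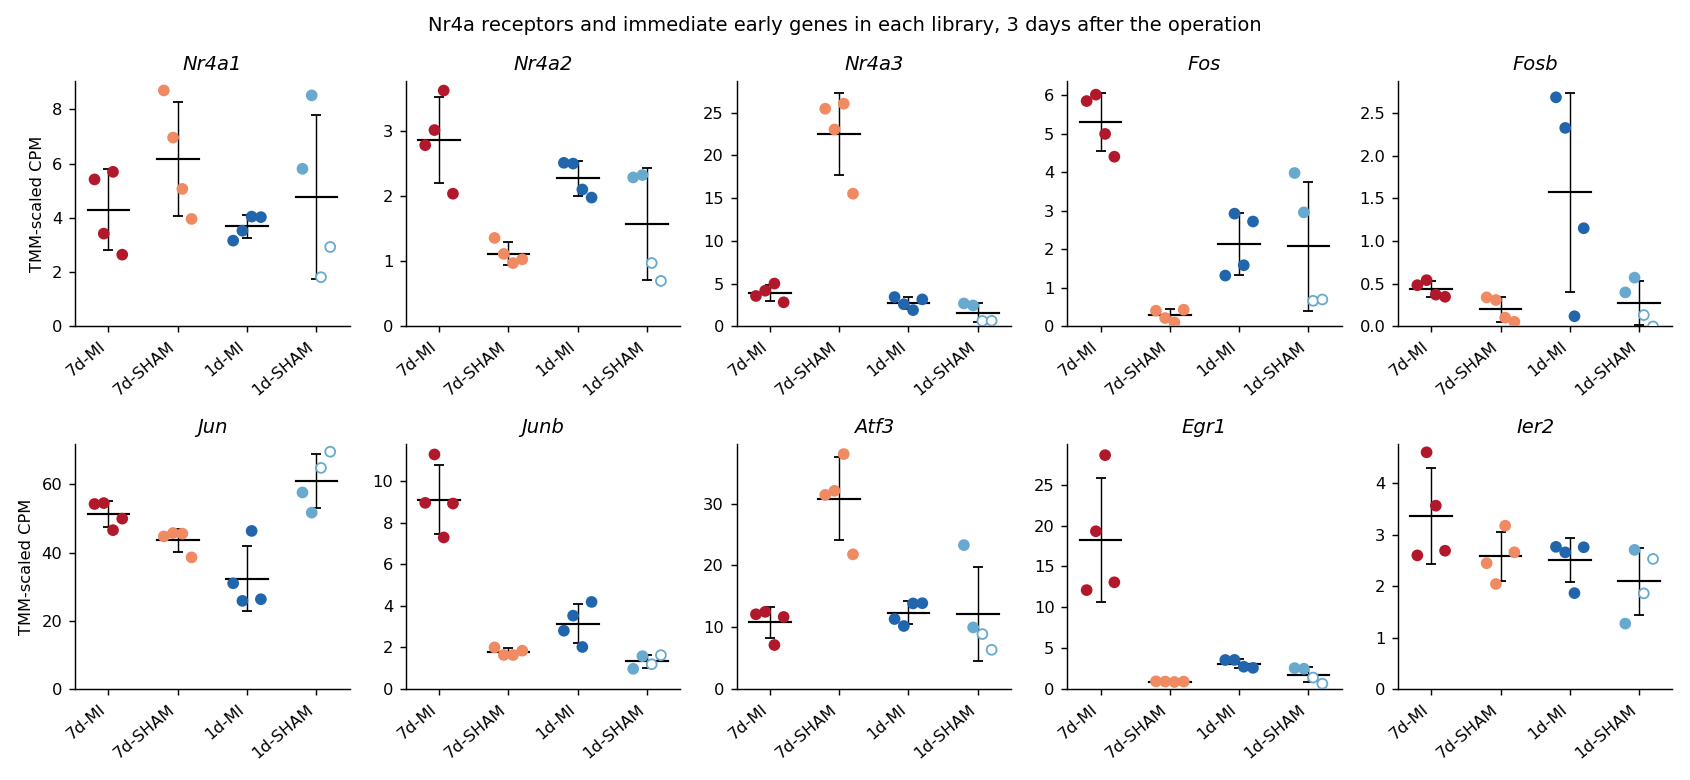
TMM-scaled CPM (y axis, linear from 0) of each member in the 16 libraries at 3 days, by group; points are libraries, lines are means, bars are SD, and hollow points are the 1d-SHAM + 3 libraries of prefix 1103. Egr1 stood at 12.1 to 28.6 CPM in 7d-MI + 3 and 0.871 to 0.952 in 7d-SHAM + 3, and Nr4a3 at 15.5 to 26.0 CPM in 7d-SHAM + 3 alone.

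Cell type markers moved with these changes, and their part in them was not tested. The summed level of 8 monocyte and macrophage markers, all detected, was 259 to 438 CPM in 7d-MI + 3 and 90.3 to 117 CPM in 7d-SHAM + 3. The 8 neutrophil markers summed to 33.0 to 74.1 CPM in 7d-MI + 3 and 2.41 to 5.10 CPM in 7d-SHAM + 3. The 8 fibroblast markers summed to 6170 to 7020 CPM in 7d-MI + 3 and 3560 to 3990 CPM in 7d-SHAM + 3. Of these, 6 passed as higher and 2 as lower in 7d-MI + 3, where 34% of all genes passed. The 8 cardiomyocyte markers ran the other way, with 12500 to 22800 CPM in 7d-MI + 3 and 28500 to 30100 CPM in 7d-SHAM + 3, which was the highest of the 3-day groups. The 4 smooth muscle markers summed to 344 to 564 CPM in 7d-MI + 3 and 133 to 260 CPM in 7d-SHAM + 3. In bulk tissue, fewer cells of a type and less RNA per cell cannot be told apart.

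The comparison of 1d-MI + 3 with 1d-SHAM + 3 asks the same of the younger hearts. Junb was higher and Jun lower in 1d-MI + 3, and the other 8 members did not pass: 2 of 10, where 8.46% of all genes passed. The median log2 fold change of the members was 0.39, against 0.06 over all genes. Junb measured 2.81, 3.53, 2.02 and 4.19 CPM in 1d-MI + 3, against 0.975, 1.59, 1.196 and 1.63 CPM in 1d-SHAM + 3 (log2 fold change 1.23, SE 0.24, adjusted p = 0.00498). Jun measured 31.0, 25.9, 46.4 and 26.4 CPM in 1d-MI + 3, against 57.6, 51.7, 64.8 and 69.6 CPM in 1d-SHAM + 3 (log2 fold change -0.91, SE 0.16, adjusted p = 0.00297). Both sets of libraries stood apart, with 1d-MI + 3 replicate 3 nearest to the shams for Jun.

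Both calls ended when the 2 groups were fitted alone (adjusted p = 0.0541 for Jun and 0.0702 for Junb), and Junb also with prefix as a block in limma-voom (adjusted p = 0.074). Fosb measured 2.68, 2.32, 0.119 and 1.15 CPM in 1d-MI + 3 and 0.398, 0.571, 0.133 and 0 CPM in 1d-SHAM + 3, where 1d-MI + 3 replicate 3 lay among the shams. The log2 difference of 2.46 (SE 0.83) missed the threshold (adjusted p = 0.0675), and it passed without 1d-MI + 3 replicate 3 or without 1d-SHAM + 3 replicate 2 (adjusted p = 0.0155 to 0.0343).

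Nr4a2, Nr4a3, Fos, Fosb, Atf3 and Egr1 passed with the 1103 shams alone and not with the 1078 shams alone or with all shams. Fos measured 1.32, 2.93, 1.59 and 2.72 CPM in 1d-MI + 3, against 3.98 and 2.96 CPM in the 1078 shams and 0.664 and 0.699 CPM in the 1103 shams. The log2 difference was 0.03 (SE 0.47) with all 4 shams and 1.65 (adjusted p = 0.0084) with the 1103 shams alone. With the 1078 shams alone it was -0.71 and did not pass (adjusted p = 0.266).

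Nr4a3 measured 3.44, 2.59, 1.91 and 3.16 CPM in 1d-MI + 3 and 2.69, 2.45, 0.642 and 0.666 CPM in 1d-SHAM + 3, and the log2 difference was 0.76 (SE 0.37, adjusted p = 0.20) with all shams and 2.08 with the 1103 shams alone. Egr1 measured 3.56, 3.57, 2.74 and 2.60 CPM in 1d-MI + 3 and 2.57, 2.49, 1.42 and 0.666 CPM in 1d-SHAM + 3, and had 0.78 with all shams and 1.54 with the 1103 shams alone. All 1d-MI + 3 libraries lay above all shams for Egr1, by a narrow margin, and the gene missed the threshold with all shams (adjusted p = 0.12). With the 1103 shams alone 8 members passed, and with the 1078 shams alone only Junb and Jun. Nr4a1 did not pass in either (3.69 ± 0.43 CPM in 1d-MI + 3, against 5.81, 8.52, 1.82 and 2.93 CPM in 1d-SHAM + 3).

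Macrophage markers summed to 62.6 to 159 CPM in 1d-MI + 3 and 34.5 to 51.6 CPM in 1d-SHAM + 3. Neutrophil markers summed to 20.3 to 26.6 CPM in 1d-MI + 3 and 4.74 to 7.99 CPM in 1d-SHAM + 3. Cardiomyocyte markers summed to 11900 to 17500 CPM in 1d-MI + 3 and 17000 to 21400 CPM in 1d-SHAM + 3. Their part in the levels of the members was not tested.

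The difference of the 2 infarct effects (the effect at 7 days of age minus that at 1 day) was tested as an interaction. It passed for 6 of 10 members, where 13.1% of all genes passed, and the median over the members was 0.48, against 0.03 over all genes. The effect of the infarct was more positive at 7 days for Fos (difference of log2 fold changes 4.17, SE 0.73, adjusted p = 0.00146), Egr1 (3.53, SE 0.46, adjusted p = 0.000219), Jun (1.14, SE 0.22, adjusted p = 0.00255) and Junb (1.13, SE 0.33, adjusted p = 0.0282). It was more negative at 7 days for Nr4a3 (-3.28, SE 0.52, adjusted p = 0.000869) and Atf3 (-1.52, SE 0.43, adjusted p = 0.0283). Fos, Nr4a3, Egr1, Jun and Junb passed with either prefix of 1d-SHAM + 3 alone, Atf3 did not with 1078 alone (-1.06, adjusted p = 0.105), and Nr4a2 passed with 1078 alone (1.40, adjusted p = 0.0181). With prefix as a block, Junb (adjusted p = 0.209) and Atf3 (adjusted p = 0.0566) were lost, and Junb also with limma-voom (adjusted p = 0.0763) and upper-quartile scaling (adjusted p = 0.0974). Junb was lost without any one of 1d-SHAM + 3 replicate 2, 1d-MI + 3 replicate 1, 7d-SHAM + 3 replicates 2 or 3, or 7d-MI + 3 replicate 2 (adjusted p = 0.0518 to 0.0676). Atf3 was lost without any one of 10 libraries (adjusted p = 0.0518 to 0.0753): 1d-SHAM + 3 replicates 2 and 3, 1d-MI + 3 replicates 3 and 4, 7d-SHAM + 3 replicates 1 to 3, and 7d-MI + 3 replicates 2 to 4.

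**Figure D2:**
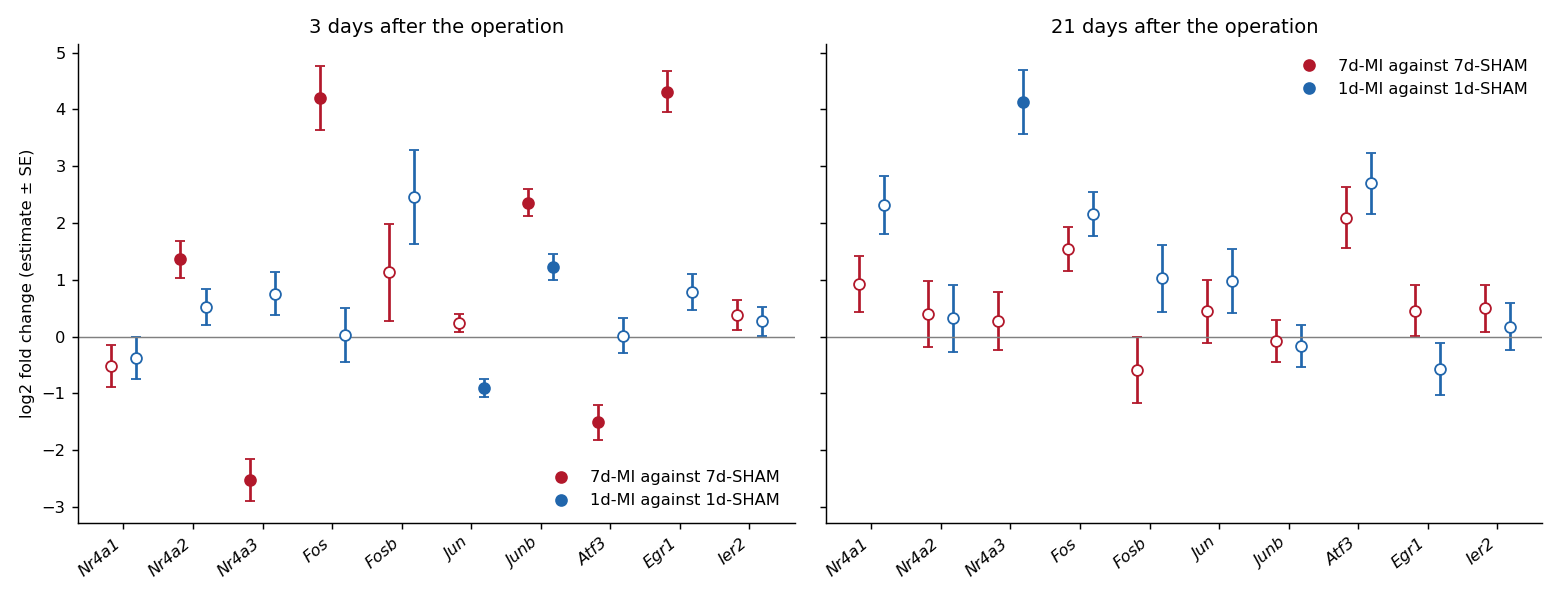
Log2 fold change with SE (y axis) of MI against SHAM for each member (x axis), for mice operated at 7 days (red) and 1 day (blue) of age, at 3 days (left) and 21 days (right); filled symbols have an adjusted p under 0.05. At 3 days Fos and Egr1 stood at 4.20 and 4.31 in mice operated at 7 days and at 0.03 and 0.78 in mice operated at 1 day; at 21 days Nr4a3 alone was filled, at 4.13 in mice operated at 1 day.

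Between the infarct groups, 7d-MI + 3 against 1d-MI + 3, 4 of 10 members passed, all higher in 7d-MI + 3, where 43% of all genes passed. The members' median log2 fold change was 0.46, against -0.13 over all genes. Genes with at least 1 count numbered 27324 to 35932 in 1d-MI + 3 and 21183 to 22316 in 7d-MI + 3. The receptor gene background would make up 2.78 to 9.75% of the Fos counts in 1d-MI + 3 and 0.448 to 0.75% in 7d-MI + 3. For Fosb it was 7.66 to 76.3% in 1d-MI + 3 and 8.65 to 15.2% in 7d-MI + 3. The 4 calls held with this background subtracted, and the part of library quality was not tested. On the log2 scale Egr1 differed by 2.55 (SE 0.32, adjusted p = 8.2e-06) and Junb by 1.54 (SE 0.23, adjusted p = 3.67e-05), and for both genes every 7d-MI + 3 library lay above every 1d-MI + 3 library. Jun had 0.66 (SE 0.16, adjusted p = 0.00265) and Fos 1.31 (SE 0.47, adjusted p = 0.031). The Fos call ended when any one of 4 libraries was left out, namely replicates 1 and 2 of 7d-MI + 3 and replicates 1 and 3 of 1d-MI + 3 (adjusted p = 0.0582 to 0.0755). It also ended with upper-quartile scaling (adjusted p = 0.075) and with a mean count of at least 50 (adjusted p = 0.0555). The Fosb value of -1.84 (SE 0.80) missed the threshold (adjusted p = 0.0706) and passed without 1d-MI + 3 replicate 3 or 1d-SHAM + 3 replicate 4 (adjusted p = 0.0161 to 0.0341). The receptors did not pass: Nr4a1 had 0.22 (SE 0.37), Nr4a2 0.33 (SE 0.31) and Nr4a3 0.49 (SE 0.36).

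Marker levels differed between these infarct groups too, and their part was not tested. Macrophage markers summed to 259 to 438 CPM in 7d-MI + 3 and 62.6 to 159 CPM in 1d-MI + 3. Of these, 8 of 8 passed as higher, where 43% of all genes passed in either direction. Fibroblast markers summed to 6170 to 7020 CPM in 7d-MI + 3 and 1800 to 3400 CPM in 1d-MI + 3, again with 8 of 8 higher. Smooth muscle markers summed to 344 to 564 CPM in 7d-MI + 3 and 147 to 310 CPM in 1d-MI + 3, and neutrophil markers to 33.0 to 74.1 CPM in 7d-MI + 3 and 20.3 to 26.6 CPM in 1d-MI + 3. Of 8 cardiomyocyte markers, 2 passed as higher and 3 as lower in 7d-MI + 3. Of 8 endothelial markers, 6 passed as higher and 1 as lower, and of 7 skeletal muscle markers 0 as higher and 5 as lower.

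Between the sham groups, 7d-SHAM + 3 against 1d-SHAM + 3, 5 of 10 members passed, where 20.3% of all genes passed, and the members' median was -0.09, against -0.13 over all genes. Nr4a3 was higher in the older shams, at 15.5 to 26.0 CPM in 7d-SHAM + 3 and 0.642 to 2.69 CPM in 1d-SHAM + 3 (log2 fold change 3.77, SE 0.39, adjusted p = 1.1e-05). Atf3 was higher too, at 30.8 ± 6.71 CPM in 7d-SHAM + 3, against 23.3, 9.98, 8.90 and 6.36 CPM in 1d-SHAM + 3 (log2 fold change 1.34, SE 0.31, adjusted p = 0.00662), with 1 younger sham above the lowest older one. Both held with each prefix alone. Nr4a1 passed with the 1103 shams alone (1.39, adjusted p = 0.0135) and Nr4a2 with the 1078 shams alone (-0.99, adjusted p = 0.016).

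Fos was lower in the older shams (log2 fold change -2.86, SE 0.56, adjusted p = 0.00185), and all its 7d-SHAM + 3 libraries lay below all 1d-SHAM + 3 libraries. The Fos call ended with the 1103 shams alone (-1.24, adjusted p = 0.10) and with prefix as a block (adjusted p = 0.13). Jun (-0.48, SE 0.16, adjusted p = 0.0384) and Egr1 (-0.98, SE 0.34, adjusted p = 0.0497) were lower as well. The Jun call ended without any one of the 4 libraries of 7d-SHAM + 3, replicates 1, 3 or 4 of 1d-SHAM + 3, or replicate 1 of 1d-MI + 3 (adjusted p = 0.0599 to 0.113). It also ended with the 1078 shams alone (-0.27, adjusted p = 0.303), with prefix as a block (adjusted p = 0.178) and with no filter (adjusted p = 0.0524). The Egr1 call ended without any one of the libraries of 7d-SHAM + 3 or 1d-MI + 3, replicates 1 or 2 of 1d-SHAM + 3, or replicate 2 of 7d-MI + 3 (adjusted p = 0.0568 to 0.158). With the 1103 shams alone Egr1 had -0.22 (adjusted p = 0.859), and with prefix as a block the adjusted p was 0.529. Each of the 3 other scalings, limma-voom, background subtraction and the groups alone ended the Egr1 call as well (adjusted p = 0.0524 to 0.314). Cardiomyocyte markers summed to 28500 to 30100 CPM in 7d-SHAM + 3 and 17000 to 21400 CPM in 1d-SHAM + 3, and fibroblast markers to 3560 to 3990 CPM in 7d-SHAM + 3 and 2400 to 3060 CPM in 1d-SHAM + 3, and their part was not tested.

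At 21 days few members passed. In 1d-MI + 21 against 1d-SHAM + 21, Nr4a3 was the 1 member of 10 that passed, where 0.0162% of all genes passed, which is 4 of 24646. The members' median log2 fold change was 1.00, against -0.11 over all genes. Nr4a3 measured 57.7, 46.4 and 22.4 CPM in 1d-MI + 21, against 2.42, 1.29 and 3.42 CPM in 1d-SHAM + 21 (log2 fold change 4.13, SE 0.57, adjusted p = 0.019). The next members by p were Fos, Atf3 and Nr4a1, which missed the threshold.

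Fos measured 4.44, 11.3 and 6.86 CPM in 1d-MI + 21 and 1.97, 1.13 and 1.90 CPM in 1d-SHAM + 21 (log2 fold change 2.16, SE 0.39, adjusted p = 0.167). Atf3 measured 16.1, 12.8 and 2.65 CPM in 1d-MI + 21 and 1.65, 1.77 and 1.43 CPM in 1d-SHAM + 21 (2.70, SE 0.54, adjusted p = 0.198). Nr4a1 measured 18.7, 31.8 and 6.25 CPM in 1d-MI + 21 and 6.09, 2.98 and 2.1997 CPM in 1d-SHAM + 21 (2.32, SE 0.51, adjusted p = 0.223). Every 1d-MI + 21 library lay above every sham for 6 of the 10 members, these 4 genes with Fosb and Jun. The share of all genes that separate so was not counted, so this adds no support to values that missed the threshold. For Nr4a1, Nr4a3 and Atf3 replicate 3 was the lowest of the 3. Replicate 3 is also the deepest library of the series.

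The Nr4a3 call was lost when any one of 4 libraries was left out, namely replicates 1 and 2 of either group (adjusted p = 0.0731 to 0.228), and with upper-quartile scaling (adjusted p = 0.0804). The Nr4a3 call also ended with the sample title number as a block (adjusted p = 0.0528). Nr4a1, Fos and Atf3 passed beside it when 7d-SHAM + 21 replicate 1, a library of neither group, was left out of the shared fit (adjusted p = 0.0114, 0.00683 and 0.00683), and 1209 genes passed then. Atf3 also passed without 1d-MI + 21 replicate 3 (adjusted p = 0.0218). Smooth muscle markers (4 genes, all detected) moved with these genes, summing to 331 to 480 CPM in 1d-MI + 21 and 56.5 to 177 CPM in 1d-SHAM + 21. Cardiomyocyte markers summed to 19400 to 25400 CPM in 1d-MI + 21 and 15700 to 18500 CPM in 1d-SHAM + 21, and endothelial markers to 362 to 475 CPM in 1d-MI + 21 and 238 to 346 CPM in 1d-SHAM + 21. None of these markers passed by edgeR's test. An unadjusted p under 0.05 was found for 3 of 4 smooth muscle, 0 of 8 cardiomyocyte and 1 of 8 endothelial markers. That was so for 14.6% of all genes. The part of these markers was not tested.

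In 7d-MI + 21 against 7d-SHAM + 21, 0 of 10 members passed by edgeR's test, where 0% of all genes passed; 2 members had an unadjusted p under 0.05, as did 16.7% of all genes, and DESeq2 called 2 members among 1028 genes. The members' median was 0.45, against -0.13 over all genes. Fos measured 4.25, 3.23 and 2.97 CPM in 7d-MI + 21 and 1.41, 1.06 and 1.11 CPM in 7d-SHAM + 21 (log2 fold change 1.54, SE 0.39, adjusted p = 0.166). Atf3 measured 7.13, 4.75 and 8.02 CPM in 7d-MI + 21 and 2.32, 1.04 and 1.24 CPM in 7d-SHAM + 21 (2.09, SE 0.53, adjusted p = 0.166). The libraries of the 2 groups did not overlap for either gene, nor for Nr4a1. Without 7d-SHAM + 21 replicate 1, Fos, Jun and Atf3 passed (adjusted p = 0.013, 0.0073 and 0.00564), and 5903 genes did. Jun was 48.5 CPM in that library and 8.53 and 9.32 CPM in the other 7d-SHAM + 21 libraries. The receptor gene background would make up 1.16, 26.0 and 58.1% of the Fos counts in the 3 libraries of 7d-SHAM + 21. Fibroblast markers summed to 3110 to 4970 CPM in 7d-MI + 21 and 965 to 1820 CPM in 7d-SHAM + 21. Macrophage markers summed to 321 to 357 CPM in 7d-MI + 21 and 207 to 235 CPM in 7d-SHAM + 21. The 3 atrial markers had a median sum of 486 CPM in 7d-MI + 21 and 3.08 CPM in 7d-SHAM + 21. None of the 3 passed by edgeR's test, and all 3 had an unadjusted p under 0.05, as did 16.7% of all genes. Atrial sums ran from 4.47 to 411 CPM within 1d-MI + 21 and from 34.9 to 212 CPM within 1d-SHAM + 21. Whether the libraries hold unequal amounts of atrial tissue was not tested, nor was the part of any of these markers.

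**Figure D3:**
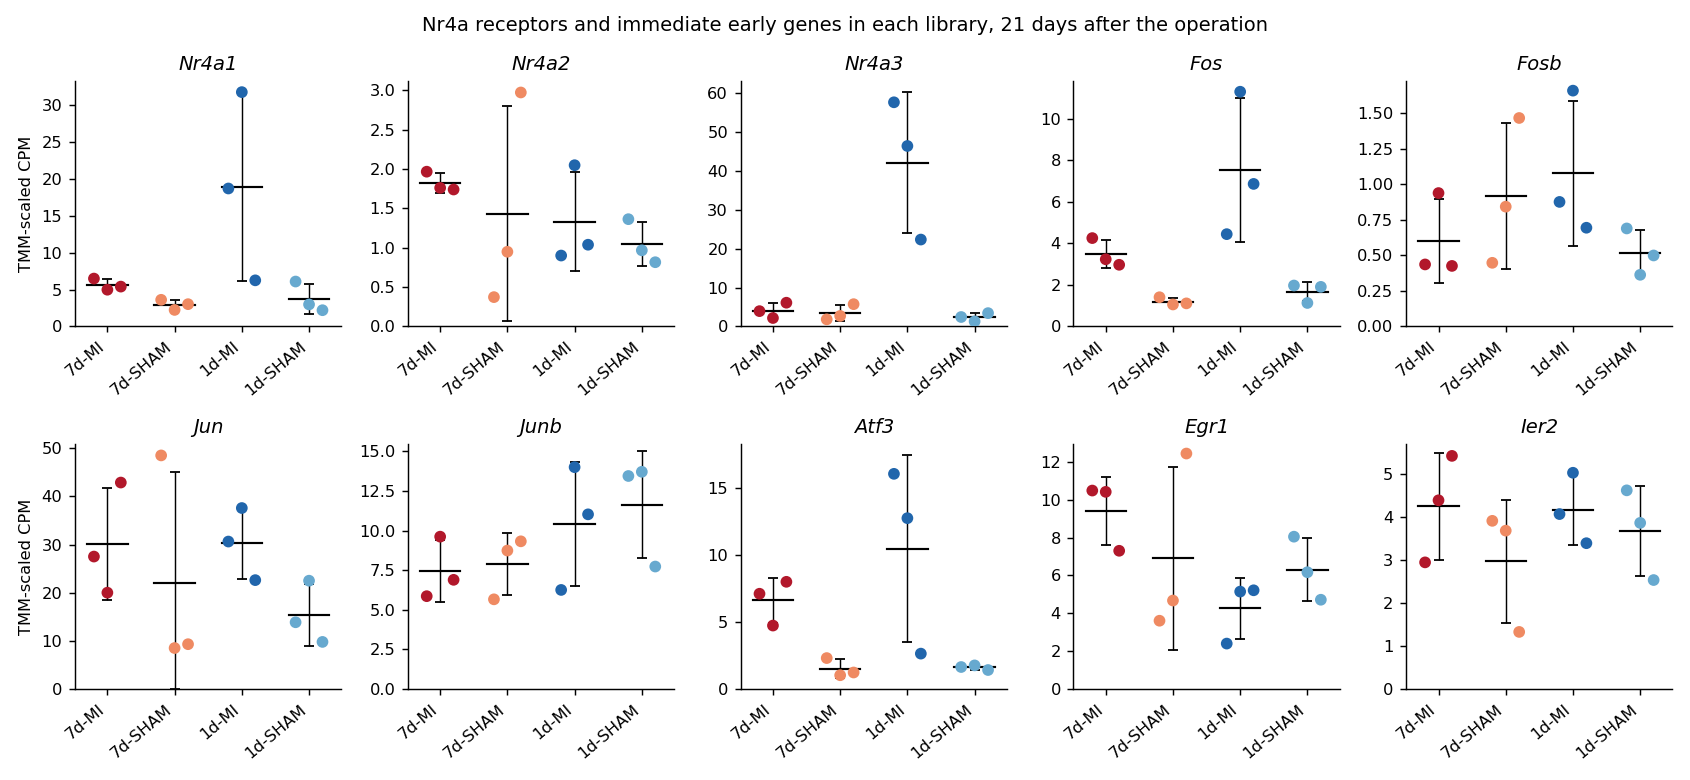
TMM-scaled CPM (y axis, linear from 0) of each member in the 12 libraries at 21 days, by group; points are libraries, lines are means and bars are SD. Nr4a3 stood at 22.4 to 57.7 CPM in 1d-MI + 21 and at 6.10 CPM or less in every other library.

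In 7d-MI + 21 against 1d-MI + 21, Nr4a3 had the lower level in 7d-MI + 21 (log2 fold change -3.37, SE 0.54, adjusted p = 0.0476), the 1 member that passed, where 0.0325% of all genes passed. The members' median was -0.57, against -0.02 over all genes. Nr4a3 measured 3.94, 2.17 and 6.10 CPM in 7d-MI + 21, far below the 1d-MI + 21 libraries. The call was lost without any one of the 6 libraries compared or 1d-SHAM + 21 replicate 1 (adjusted p = 0.0619 to 0.293), with upper-quartile scaling (adjusted p = 0.0752) and with the receptor background subtracted (adjusted p = 0.0575). Smooth muscle markers summed to 134 to 166 CPM in 7d-MI + 21 and 331 to 480 CPM in 1d-MI + 21, fibroblast markers to 3110 to 4970 CPM in 7d-MI + 21 and 1750 to 2530 CPM in 1d-MI + 21, and adipocyte markers to 12.3 to 18.8 CPM in 7d-MI + 21 and 0 to 2.09 CPM in 1d-MI + 21. None of these markers passed by edgeR's test. An unadjusted p under 0.05 was found for 1 of 4 smooth muscle, 5 of 8 fibroblast and 6 of 6 adipocyte markers. That was so for 6.52% of all genes. The part of these markers in the Nr4a3 difference was not tested. Nr4a1 (-1.75, SE 0.50) and Fos (-1.11, SE 0.37) had negative values and Egr1 a positive one (1.14, SE 0.45), with adjusted p = 0.376, 0.518 and 0.63. Egr1 measured 10.5, 10.4 and 7.30 CPM in 7d-MI + 21 and 2.40, 5.15 and 5.22 CPM in 1d-MI + 21, with no overlap.

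In 7d-SHAM + 21 against 1d-SHAM + 21, 0 of 10 members passed by edgeR's test, where 0% of all genes passed, and 0 had an unadjusted p under 0.05 or passed by DESeq2. The libraries of the 2 groups overlapped for all 10. The difference of the infarct effects between ages passed for 0 members, where 0% of all genes passed; 1 had an unadjusted p under 0.05, as did 3.76% of all genes, and DESeq2 called 1. That member was Nr4a3, with a difference of -3.86 (SE 0.74, adjusted p = 0.324), and it passed without 7d-SHAM + 21 replicate 1 (adjusted p = 0.00902). Junb, which stood out at 3 days, averaged 7.46 ± 1.94, 7.91 ± 1.97, 10.4 ± 3.91 and 11.6 ± 3.38 CPM (SD, n = 3 each) in 7d-MI + 21, 7d-SHAM + 21, 1d-MI + 21 and 1d-SHAM + 21, all within their spread.

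Whether the infarct effect of an age differed between follow-ups was tested in 1 fit of all 28 libraries, as the effect at 21 days minus that at 3 days within each age. Kit and follow-up cannot be told apart in the levels. Each effect is taken within its own kit, so the kit cancels only as far as it acts alike on MI and sham libraries, which was not tested. This fit scaled the libraries of both kits together and estimated their spread jointly. The common coefficient of variation between libraries was 0.33 at 3 days alone, 0.57 at 21 days alone and 0.49 in the joint fit. In mice operated at 1 day, 5 of 10 members passed, all more positive at 21 days, where 7.79% of all genes passed, and the members' median was 1.10, against -0.18 over all genes. They were Nr4a3 (3.57, SE 0.63, adjusted p = 0.00439), Atf3 (2.87, SE 0.61, adjusted p = 0.0111), Nr4a1 (2.84, SE 0.63, adjusted p = 0.0126), Fos (2.32, SE 0.64, adjusted p = 0.029) and Jun (2.07, SE 0.58, adjusted p = 0.0317). Nr4a3 held without any one library.

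The other calls did not hold throughout. Atf3 was lost without 1d-MI + 21 replicate 1 (adjusted p = 0.0627) and Nr4a1 without 1d-MI + 21 replicate 1 or 1d-SHAM + 21 replicate 3 (adjusted p = 0.0517 to 0.052). Fos was lost without any one of 10 libraries (adjusted p = 0.0528 to 0.0947): 1d-SHAM + 3 replicate 1, 1d-MI + 3 replicates 1 and 2, 7d-SHAM + 3 replicates 1 and 2, the 3 of 1d-SHAM + 21, and 1d-MI + 21 replicates 1 and 2. Jun was lost without any one of 11 (adjusted p = 0.0537 to 0.102): 1d-SHAM + 3 replicates 3 and 4, 1d-MI + 3 replicates 1, 2 and 4, 7d-SHAM + 3 replicates 1 and 2, 1d-SHAM + 21 replicates 1 and 3, and 1d-MI + 21 replicates 1 and 2. With the 1103 shams alone at 3 days the Fos value was 0.80 (adjusted p = 0.304) and Egr1 passed (-1.82, adjusted p = 0.0326), and with the 1078 shams alone Jun was lost (1.86, adjusted p = 0.143). Fos was lost under 6 other settings as well, all 3 other scalings among them (adjusted p = 0.0517 to 0.0956), and Jun with no filter, with upper-quartile scaling and with the 20 most abundant genes left out of the scaling (adjusted p = 0.0511 to 0.0813). Junb missed the threshold (-1.16, adjusted p = 0.0728) and passed without 1d-MI + 3 replicate 3 or 7d-SHAM + 21 replicate 1 (adjusted p = 0.0428 to 0.0464).

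In mice operated at 7 days, 5 of 10 members passed, where 5.03% of all genes passed, and the members' median was -0.34, against -0.31 over all genes. The effect was more positive at 21 days for Atf3 (3.66, SE 0.62, adjusted p = 0.000956) and Nr4a3 (2.90, SE 0.62, adjusted p = 0.0067), the 2 members that were lower in 7d-MI + 3. It was more negative at 21 days for Egr1 (-3.77, SE 0.56, adjusted p = 0.000215), Junb (-2.36, SE 0.42, adjusted p = 0.00123) and Fos (-2.59, SE 0.68, adjusted p = 0.0223), 3 of the 4 that were higher in 7d-MI + 3. Fos was lost without 7d-SHAM + 3 replicate 2 or 3, 7d-SHAM + 21 replicate 3 or 7d-MI + 21 replicate 3 (adjusted p = 0.0532 to 0.0768), and with limma-voom (adjusted p = 0.0682). Jun passed without 7d-SHAM + 21 replicate 1 (adjusted p = 0.00521).

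Co-variation of the members with Fos was taken over the libraries of each follow-up on log2 CPM, as 18 relations with permutation tests and Benjamini-Hochberg adjustment over the 18. The permutations shuffled libraries without regard to group, so the p-values over all libraries also take in the differences between group means. Over the 16 libraries at 3 days, Nr4a2 (Pearson r = 0.845, permutation p = 0.00011, adjusted p = 0.00099; Spearman rho = 0.812, permutation p = 0.00022, adjusted p = 0.00198) and Egr1 (r = 0.842, permutation p = 3e-05, adjusted p = 0.00054; rho = 0.85, permutation p = 7e-05, adjusted p = 0.00126) rose with Fos. Without the 2 libraries farthest from the Fos median, r was 0.839 for Nr4a2 and 0.857 for Egr1. Junb followed less closely (r = 0.647, permutation p = 0.00733, adjusted p = 0.022; rho = 0.579, permutation p = 0.0209, adjusted p = 0.0748), with r = 0.657 without those 2. Atf3 ran against Fos (r = -0.589, permutation p = 0.0174, adjusted p = 0.0449; rho = -0.426, permutation p = 0.102, adjusted p = 0.204), a relation that rested on those libraries, since r was -0.268 without them. Nr4a3 had r = -0.497 (adjusted p = 0.113).

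Within groups, on deviations from the group means, r was 0.754 for Nr4a2 (adjusted p = 0.011), 0.637 for Nr4a3 and 0.633 for Nr4a1 (both adjusted p = 0.0498), and 0.571 for Egr1 (adjusted p = 0.089). These within-group values rested on the prefix split of 1d-SHAM + 3: without that group they were 0.258 for Nr4a2, -0.196 for Nr4a3, 0.164 for Nr4a1 and 0.0267 for Egr1 (n = 12). Prefix and group cannot be told apart in the relations over all libraries.

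Over the 12 libraries at 21 days, Nr4a1 (r = 0.844, permutation p = 0.00055, adjusted p = 0.0033; rho = 0.874, permutation p = 0.00055, adjusted p = 0.0033), Atf3 (r = 0.782, permutation p = 0.003, adjusted p = 0.0109; rho = 0.839, permutation p = 0.00108, adjusted p = 0.00486) and Nr4a3 (r = 0.772, permutation p = 0.00304, adjusted p = 0.0109; rho = 0.636, permutation p = 0.0291, adjusted p = 0.0748) rose with Fos. Without the 2 farthest libraries, r was 0.798 for Nr4a1, 0.902 for Atf3 and 0.559 for Nr4a3. Within groups r was 0.382 for Nr4a1, 0.0102 for Atf3 and 0.0419 for Nr4a3 (adjusted p = 0.499, 0.975 and 0.975). At 3 days Nr4a1 had r = -0.0831 and Atf3 and Nr4a3 negative values, so the partners of Fos were other members at each follow-up. The difference between the follow-ups in these correlations was not tested.

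**Figure D4:**
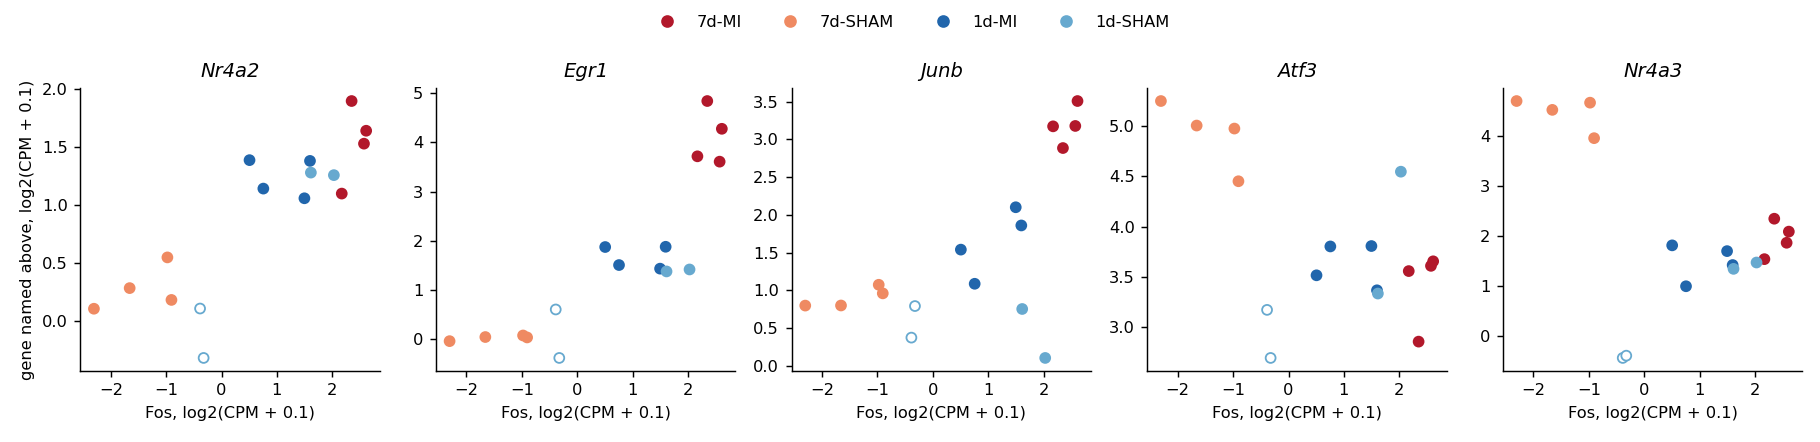
Log2 CPM of Nr4a2, Egr1, Junb, Atf3 and Nr4a3 (y axes) against log2 CPM of Fos (x axis) in the 16 libraries at 3 days, with groups marked. The 7d-SHAM + 3 libraries lie at the low end of Fos (0.102 to 0.434 CPM), where Nr4a3 stood at 15.5 to 26.0 CPM and Egr1 below 1 CPM.

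The genes whose pattern over all libraries of a follow-up was most like that of Nr4a3 and Fos were taken as the 5 highest Pearson r of log2 CPM among all tested genes that are no members. They are a description with no test, and libraries of a group share their prefix. For Nr4a3 over 16 libraries at 3 days they included Pi16 (r = 0.918), Noct (0.916), Tnfaip2 (0.906) and Il18bp (0.88), and over 12 libraries at 21 days they were Cdkn1a (0.955), Tmem100 (0.889), Trpv4 (0.879), Ttyh1 (0.879) and Noct (0.873). Noct, which encodes the circadian deadenylase-related protein nocturnin, was in both sets. For Fos they were Mthfd2 (0.953), Acsl4 (0.943), Prr11 (0.937), Ccl4 (0.933) and Gm38070 (0.933) at 3 days, and Sat1 (0.924), Gfpt2 (0.907), Dct (0.901), Spock2 (0.884) and Nov (0.881) at 21 days.

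Other genes of the pathway were read from lists of AP-1 relatives, further immediate early genes, SRF and CREB with their cofactors, and cAMP-responsive genes. Of 40 other immediate early genes, 18 were higher and 2 lower in 7d-MI + 3 than in 7d-SHAM + 3, where 34% of all genes passed, with a median log2 fold change of 0.53, against 0.08 over all genes. Myc measured 11.3 ± 2.01 CPM in 7d-MI + 3 and 2.10 ± 0.28 CPM in 7d-SHAM + 3 (SD, n = 4 each, log2 fold change 2.42). Dusp6, a phosphatase that switches off ERK, had 1.71, and Cyr61, which encodes a matricellular protein, 2.70. Klf4 (-0.57) and Sik1 (-0.68) were lower in 7d-MI + 3.

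In 1d-MI + 3 against 1d-SHAM + 3, 4 of these 40 were higher and 0 lower, where 8.46% of all genes passed, led by Csrnp1 (1.22) and Socs3 (1.56). Egr4 was higher as well, at 0.397 to 1.54 CPM in 1d-MI + 3 and 0 to 0.0423 CPM in 1d-SHAM + 3. The interaction with age passed for 11, where 13.1% of all genes passed, all more positive at 7 days, among them Myc (1.80), Dusp6 (1.77) and Btg1 (1.34). In 7d-MI + 3 against 1d-MI + 3, 18 were higher and 4 lower, where 43% of all genes passed, led by Errfi1 (1.36), Myc (1.29) and Klf2 (1.46) among the higher ones, while Ifrd1 (-1.78) was lower and Egr4 was at 0 in all 7d-MI + 3 libraries. In 7d-SHAM + 3 against 1d-SHAM + 3, 3 were higher (Rhob 0.67, Sik1 0.79 and Csrnp1 0.78) and 8 lower, led by Dusp6 (-1.27), Gadd45b (-0.96) and Nfkbiz (-1.05), where 20.3% of all genes passed. None of the 39 tested at 21 days passed by edgeR's test, while 9 had an unadjusted p under 0.05 in 7d-MI + 21 against 1d-MI + 21 (6.52% of all genes), 7 in 7d-MI + 21 against 7d-SHAM + 21 (16.7%), 8 in 1d-MI + 21 against 1d-SHAM + 21 (14.6%), 0 between the shams (1.79%) and 4 for the age difference (3.76%).

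**Figure D5:**
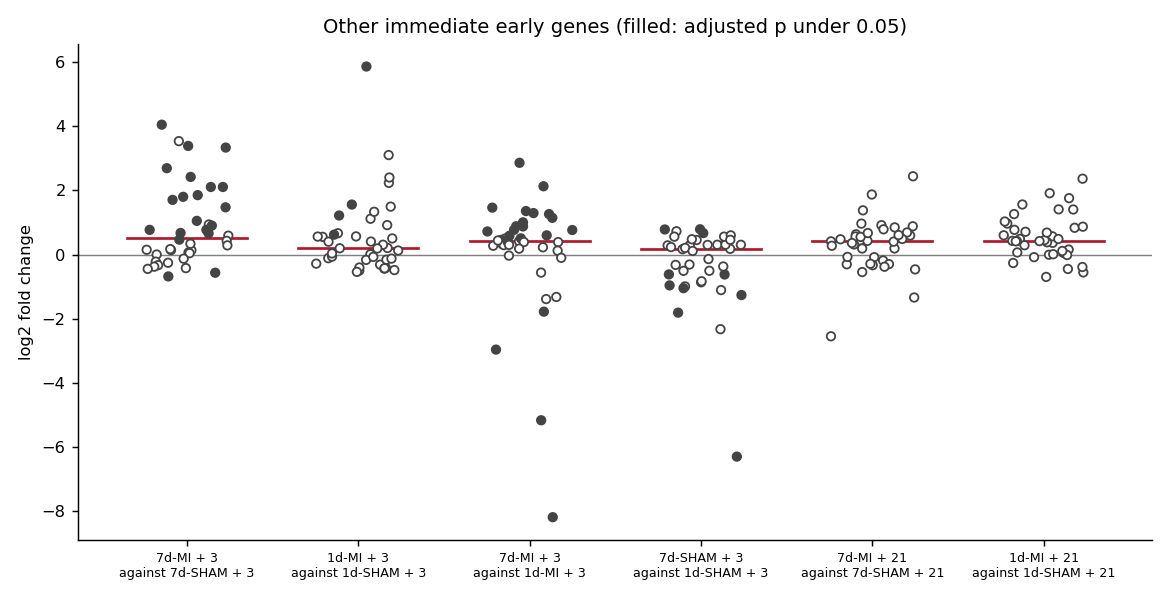
Log2 fold changes (y axis) of the 40 other immediate early genes (39 tested at 21 days) in 6 comparisons; points are genes, filled where the adjusted p was under 0.05, and the red line is the median of the list. The median was 0.53 in 7d-MI + 3 against 7d-SHAM + 3 and 0.20 in 1d-MI + 3 against 1d-SHAM + 3.

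Of 11 other AP-1 and related bZIP genes, 3 were higher and 2 lower in 7d-MI + 3 than in 7d-SHAM + 3, where 34% of all genes passed. Fosl2, a FOS family subunit, measured 24.6 ± 3.85 CPM in 7d-MI + 3 and 8.79 ± 1.38 CPM in 7d-SHAM + 3 (SD, n = 4 each, log2 fold change 1.49), and Batf (1.88) and Mafg (0.66) were higher as well. Jund (-0.96) and Mafk (-0.62) were lower in 7d-MI + 3. In 7d-SHAM + 3 against 1d-SHAM + 3, Mafk (0.73), Fosl2 (0.74) and Jund (0.60) were higher, where 20.3% of all genes passed. The interaction with age passed for Fosl2 alone of the 11 (0.96), where 13.1% of all genes passed.

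The share of all genes that passed in 7d-MI + 3 against 7d-SHAM + 3 was 34%, and the next 3 lists are read beside it. Of 6 genes of SRF and its cofactors, Mkl1 (1.48) and Mkl2 (0.75) were higher in 7d-MI + 3 than in 7d-SHAM + 3, and Srf itself was lower (-0.52). Of 8 CREB genes and coactivators, 5 were higher, led by Ep300 (1.10), Crebbp (0.67) and Crtc2 (1.45), and Crem (-1.10), whose locus also encodes the cAMP-induced repressor ICER, was lower. Of 9 cAMP-responsive genes, Dio2 (1.91) was higher and 4 were lower in 7d-MI + 3: Rgs2 (-2.13), Ppargc1a (-2.20), Crem and Sik1. The interaction with age was negative for Ppargc1a (-1.78) and Rgs2 (-1.50), and positive for Dio2 (2.01).

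Ppargc1a, the coactivator of mitochondrial genes, measured 35.9 ± 18.4 CPM in 7d-MI + 3, 165 ± 22.8 CPM in 7d-SHAM + 3, 39.0 ± 12.4 CPM in 1d-MI + 3 and 52.3 ± 10.3 CPM in 1d-SHAM + 3 (SD, n = 4 each). At 21 days the older infarct group had the lower level (44.0 ± 8.49 CPM in 7d-MI + 21 and 197 ± 39.7 CPM in 1d-MI + 21, SD, n = 3 each, log2 fold change -2.16, adjusted p = 0.0394), the 1 gene of the pathway lists that passed there. At both follow-ups the group with the highest Ppargc1a was that with the highest Nr4a3.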

How the data were processed

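RNA from the remote left ventricular wall was extracted with TRIzol, treated with DNase I and sequenced from stranded total RNA libraries (TruSeq kit at 3 days, ScriptSeqV2 kit at 21 days, on different Illumina sequencers). The submitters' processing notes name TopHat2 2.0.11, Bowtie2 2.2.2, Cufflinks 2.2.1 and GRCm38. Which tool counted the reads, and with which strand setting and annotation release, is not given in the sources used here. The authors deposited a raw count per gene, which was used here, and RPKM values, from which only gene lengths were recovered; the deposited CPM and log2 columns were not used. In all, 30 files were read for 28 libraries, since 2 libraries were deposited as 2 lanes each, which were summed.

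Counts were scaled by TMM within each follow-up, but over all libraries together in the fit that compares the follow-ups. Filtering with filterByExpr (minimum count 10, minimum total 15) left 20345 genes at 3 days, 24646 at 21 days and 26250 in the fit of all libraries. Differences were tested with edgeR 4.0.16 (quasi-likelihood, robust) under R 4.3.3, with all groups of a follow-up in 1 fit, adjusted over all genes tested by Benjamini-Hochberg, with a threshold of 0.05. The SE of a fold change is its size divided by the square root of F. The fit was tested on simulated data with known changes. RPKM here is TMM-scaled CPM per kilobase. How many of all genes have no overlap between groups was not counted, so statements on overlap are descriptions. Correlations were taken on log2 CPM and used 100000 permutations. Each library is 1 mouse, so p-values measure the spread between these mice within groups. Mice of 1 prefix were treated as independent in the main fit. At 21 days each group had a single prefix, so spread between prefixes was not measured there.

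Other settings tried were DESeq2 1.42.0, limma-voom (limma 3.58.1) with and without prefix as a block, and the sample title number as a block at 21 days. Also tried were 3 other scalings (RLE, upper-quartile, and TMM leaving out the 20 most abundant genes) and no filter or a mean count of at least 50. The rest were the compared groups alone, subtraction of the receptor gene background, 1 lane only, a pseudocount of 0.1 CPM, and leaving out each library. Fits with a single prefix of 1d-SHAM + 3 were chosen once the data had been seen. The members and lists were chosen with earlier results of these data known. All members are given in full. Genes of the other lists were named for some comparisons only, as a rule the 3 of smallest p in each direction. Genes of these lists also passed in comparisons that are not described here. Cell type markers are given as sums. 1 gene among those most like Nr4a3 is not reported here.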

Additional observations from a re-analysis of the deposited data

Results flagged for a closer look

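In 3 of 40 pairs of a member and a 4-library group at 3 days, 1 library stood far from the others, with a gap over Dixon's critical value for 4 samples, which chance gives in about 1 of 20 groups. Jun was lowest in 7d-SHAM + 3 replicate 4 (gap 0.871 of the range), Atf3 in 7d-MI + 3 replicate 3 (0.879) and Ier2 in 1d-MI + 3 replicate 3 (0.899).

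The infarct effect differed between ages at 3 days, by the interaction test, for Nr4a3 (-3.285 on the log2 scale, effect at 7 days minus effect at 1 day), Fos (4.171), Jun (1.145), Junb (1.126), Atf3 (-1.524) and Egr1 (3.533). Between follow-ups (effect at 21 days minus effect at 3 days), it differed in mice operated at 1 day for Nr4a1 (2.845), Nr4a3 (3.568), Fos (2.324), Jun (2.074) and Atf3 (2.868). In mice operated at 7 days it differed for Nr4a3 (2.896), Fos (-2.594), Junb (-2.365), Atf3 (3.659) and Egr1 (-3.771).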

How the results depend on the processing

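Of 3222 member values recomputed, 2920 kept their direction and side of the threshold, 116 fell below it, 56 rose above it and 130 changed sign, all of members past the threshold in neither fit. Of 35 member calls, 20 held under every alternative run and all 35 kept their sign. Leaving out 1 library, the members called ranged from 3 to 5 in 7d-MI + 3 against 1d-MI + 3, stayed at 6 in 7d-MI + 3 against 7d-SHAM + 3, and ranged from 2 to 3 in 1d-MI + 3 against 1d-SHAM + 3, 3 to 5 between shams and 4 to 6 for the age difference at 3 days. At 21 days they ranged from 0 to 1, 0 to 3, 0 to 4, 0 to 0 and 0 to 1 in the same order of comparisons, and between follow-ups from 1 to 6 (1 day) and 4 to 6 (7 days).

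In 1d-MI + 3 against 1d-SHAM + 3 the 2 members called became 5 with no filter, 1 with prefix as a block, 0 with the groups alone and 8 with the 1103 shams alone. Between shams at 3 days the 5 became 2 with prefix as a block. In 7d-MI + 21 against 1d-MI + 21 the 1 became 0 with upper-quartile scaling or background subtracted, and 2 with no filter or DESeq2. In 7d-MI + 21 against 7d-SHAM + 21 the 0 became 2 with no filter or DESeq2. In 1d-MI + 21 against 1d-SHAM + 21 the 1 became 0 with upper-quartile scaling, and 4 with no filter, DESeq2 or the groups alone. The age difference at 21 days had 1 with no filter or DESeq2, and the follow-up difference at 1 day 3 without the 20 most abundant genes. Of the 18 relations with Fos, 7 passed, and 3 on deviations from group means. The causes were not tested.

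The replicate block at 21 days used the numbers in the sample titles, which are 2, 3 and 5 in 1d-SHAM + 21. Pairs of the same number had r from -0.188 to 0.544 (15 pairs, 6 over 0.1), and pairs of different numbers -0.581 to 0.419. Whether these numbers pair the samples cannot be told from these values. As a block these numbers changed 1 of 50 member calls, Nr4a3 in 1d-MI + 21 against 1d-SHAM + 21 (4.50, adjusted p = 0.0528), leaving 0 members there. Over all genes, the 0 called in 7d-MI + 21 against 7d-SHAM + 21 became 46 with this block.

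Over all genes, the 6910 called in 7d-MI + 3 against 7d-SHAM + 3 became 4492 with prefix as a block, and the 1722 in 1d-MI + 3 against 1d-SHAM + 3 ranged from 161 (groups alone) to 5599 (1103 shams alone), with 2981 without a filter, 2789 by DESeq2, 255 with prefix as a block and 428 with the 1078 shams. Between shams at 3 days 4125 became 1221, 7406 and 1510 with prefix as a block, 1078 and 1103 alone, and the age difference 2662 became 864 with the block. At 21 days the 8, 0 and 4 called in the MI comparisons (7d-MI against 1d-MI, 7d and 1d against sham) became 208, 1028 and 328 by DESeq2 and 102, 383 and 154 with no filter, and the age difference 44 and 17. Without 7d-SHAM + 21 replicate 1, 5903 and 1209 genes were called at 7 days and 1 day against sham. Between follow-ups, 2044 ranged from 90 to 4609 and 1320 from 444 to 5595 with 1 library left out. Upper-quartile scaling shifted all log2 fold changes by up to -0.65 and RLE by up to -0.48, both in the follow-up difference at 1 day. Fos at 4 to 16 counts in 7d-SHAM + 3 and Fosb throughout are limited by depth.

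Sign changes of values that did not pass were as follows on the log2 scale. Nr4a1 (-0.012 with upper-quartile scaling) changed sign in 7d-MI + 3 against 1d-MI + 3. Nr4a1 (0.66 with the 1103 shams), Nr4a2 (-0.037 with the 1078 shams), Fos (-0.012 without filter and -0.71 with the 1078 shams) and Atf3 (-0.023 without filter and -0.45 with the 1078 shams) changed sign in 1d-MI + 3 against 1d-SHAM + 3. Nr4a1 (-0.16 with the 1078 shams), Nr4a2 (0.40 with the 1103 shams) and Fosb (1.37 with the 1103 shams) changed sign in 7d-SHAM + 3 against 1d-SHAM + 3. Nr4a1 (0.45 with the 1078 shams), Nr4a2 (-0.048 with the 1103 shams) and Ier2 (-0.13 with upper-quartile scaling and -0.029 with a mean count of at least 50 and -0.017 with prefix as a block) changed sign in the age difference at 3 days. Jun (0.014 without the 20 most abundant genes and 0.044 without filter) and Ier2 (-0.0085 with a mean count of at least 50) changed sign in 7d-MI + 21 against 1d-MI + 21. Nr4a2 (-0.086 with upper-quartile scaling), Nr4a3 (-0.18 with upper-quartile scaling and -0.0054 with a mean count of at least 50), Fosb (0.048 with background subtracted) and Junb (0.071 without the 20 most abundant genes and 0.0062 without filter) changed sign in 7d-MI + 21 against 7d-SHAM + 21. Ier2 (-0.14 with upper-quartile scaling and -0.039 with the replicate block) changed sign in 1d-MI + 21 against 1d-SHAM + 21. Nr4a2 (-0.54 with limma-voom), Jun (-0.27 with the replicate block), Atf3 (0.22 with first lane only) and Egr1 (-0.034 without the 20 most abundant genes and -0.18 with limma-voom) changed sign in 7d-SHAM + 21 against 1d-SHAM + 21. Nr4a2 (-0.10 with upper-quartile scaling and -0.069 with a mean count of at least 50), Jun (0.21 with the replicate block), Junb (-0.012 with upper-quartile scaling and -0.0082 with a mean count of at least 50 and -0.077 with background subtracted) and Atf3 (0.0021 with the replicate block) changed sign in the age difference at 21 days. Nr4a2 (0.13 with background subtracted and 0.51 with the 1078 shams) and Ier2 (-0.34 with RLE scaling and -0.52 with upper-quartile scaling and -0.089 without the 20 most abundant genes and -0.027 without filter and -0.41 with a mean count of at least 50 and -0.35 with DESeq2 and -0.11 with background subtracted and -0.0016 with the 1078 shams) changed sign in the follow-up difference at 1 day. Nr4a2 (0.0062 with limma-voom) and Ier2 (-0.022 with RLE scaling and -0.073 with upper-quartile scaling and -0.083 with a mean count of at least 50 and -0.031 with DESeq2) changed sign in the follow-up difference at 7 days. With 1 library left out, the value of each of these crossed 0 within the range given. Nr4a1 (-0.66 to 0.056), Fos (-0.29 to 0.54) and Atf3 (-0.21 to 0.54) crossed 0 in 1d-MI + 3 against 1d-SHAM + 3. Fosb (-0.91 to 0.068) crossed 0 in 7d-SHAM + 3 against 1d-SHAM + 3. Nr4a1 (-0.57 to 0.15) and Ier2 (-0.056 to 0.31) crossed 0 in the age difference at 3 days. Jun (-0.34 to 0.24) and Ier2 (-0.17 to 0.26) crossed 0 in 7d-MI + 21 against 1d-MI + 21. Nr4a2 (-0.029 to 1.53), Nr4a3 (-0.10 to 0.89) and Junb (-0.27 to 0.10) crossed 0 in 7d-MI + 21 against 7d-SHAM + 21. Nr4a2 (-0.10 to 0.55), Junb (-0.41 to 0.12) and Ier2 (-0.022 to 0.32) crossed 0 in 1d-MI + 21 against 1d-SHAM + 21. Nr4a1 (-0.63 to 0.084), Nr4a2 (-0.74 to 0.85), Nr4a3 (-0.12 to 0.83), Jun (-0.79 to 0.93), Atf3 (-0.52 to 0.18) and Egr1 (-0.67 to 0.41) crossed 0 in 7d-SHAM + 21 against 1d-SHAM + 21. Nr4a2 (-0.36 to 1.22), Jun (-0.92 to 0.80) and Junb (-0.17 to 0.36) crossed 0 in the age difference at 21 days. Nr4a2 (-0.43 to 0.22) and Ier2 (-0.11 to 0.30) crossed 0 in the follow-up difference at 1 day. Nr4a2 (-1.32 to 0.27), Jun (-0.11 to 1.63) and Ier2 (-0.088 to 0.45) crossed 0 in the follow-up difference at 7 days.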

Other observations

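Of 10 heat shock genes, 4 were higher and 2 lower in 7d-MI + 3 than in 7d-SHAM + 3, where 34% of all genes passed. Hsph1 (1.22), Hspb1 (0.67) and Hspa1b (1.06) were higher on the log2 scale, and the mitochondrial chaperonin pair Hspd1 (-0.63) and Hspe1 (-0.42) was lower. In 7d-SHAM + 3 against 1d-SHAM + 3, Hsp90aa1 (-0.77) and Hspe1 (-0.41) were lower in the older shams. Among 5 partner genes, which encode RXR receptors and the EGR corepressors NAB1 and NAB2, Rxrg (-1.79) and Rxrb (-0.55) were lower in 7d-MI + 3 than in 7d-SHAM + 3. Rxra was higher in 7d-MI + 3 than in 1d-MI + 3 (0.89) and lower in 1d-MI + 3 than in 1d-SHAM + 3 (-0.65). These lists are a description beside the members and carry no further test.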
